A study of Mus musculus with 103 samples.

Results

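The genes described here encode the proteins of the cytosolic ribosome. They were chosen by name from the platform annotation, as every probe set (a group of short array probes read as 1 value) with a single symbol that starts with Rpl, Rps or Rplp and a number, kinases of the Rps6k family left out. The rule found 99 of 22690 probe sets on all 103 arrays, for 48 of the 12393 genes that have a probe set of their own. Of the genes, 20 encode large subunit proteins (39 probe sets), 19 small subunit proteins (48 probe sets), 2 the stalk proteins Rplp0 and Rplp2 (1 probe set each), and 7 are paralogs or other relatives of a core gene (10 probe sets). The relatives are Rpl3l, Rpl7l1, Rpl22l1, Rpl39l, Rps4l, Rps27l and Rps15a-ps6, and the other 41 are called core genes below. A further 102 probe sets that list a ribosomal protein gene beside other symbols were left out, since their signal cannot be given to 1 gene, so many ribosomal protein genes are not analysed here.

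The series asked how well labelling methods for very small RNA amounts measure expression. Stratagene Mouse Universal Total RNA was labelled by the Affymetrix one-cycle protocol (1 ug, 4 arrays), by the two-cycle, Ovation and RiboAmp HS kits (500 ng to 50 pg, 2 arrays per input) and by BIIB, a protocol developed at Biogen Idec (5 ng to 10 pg, 4 arrays per input). Ambion total RNA of brain, embryo, heart, kidney, liver, lung, ovary and spleen was labelled once by one-cycle from 1 ug and once by BIIB from 500 pg. T and B cells were flow sorted from splenocytes of 1 normal mouse and mixed in 6 proportions, with 2 arrays per mixture of 100 cells and 1 per mixture of 500 cells, and RAW267 cultured cells were sorted at 50 to 10000 cells (11 arrays), all labelled by BIIB. No animal is replicated in any group, and each tissue, and the universal pool, is 1 RNA stock. No p-value here therefore measures spread between animals. The tissue fits have 1 array per tissue and protocol, so their spread is what tissue and protocol leave over. For RAW267 against lymphocytes the spread also holds differences between the T and B cell mixtures. For RAW267 cell number it also holds departures from the slope. Elsewhere a p-value reflects array-to-array spread, possibly technical. The labels give no age, sex or strain.

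A ribosome joins a small subunit, which reads the mRNA, to a large subunit, which forms the peptide bond. Each subunit is built on ribosomal RNA from many small, mostly basic proteins needed in equal amounts, and the stalk proteins at the side of the large subunit recruit the elongation factors. The mRNAs of these proteins are among the most abundant in a growing cell. Most start with a run of pyrimidines, the terminal oligopyrimidine (TOP) tract, through which their translation is tuned to nutrient supply. A few genes have paralogs with a narrower range, such as Rpl3l, the form of Rpl3 found in heart and skeletal muscle.

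Arrays labelled brain and liver went against their labels in both protocols. Albumin (Alb) had a signal of 389047 by one-cycle and 1383220 by BIIB on the arrays labelled brain, against 65.2 and 379 on those labelled liver. Myelin basic protein (Mbp) had 121938 and 294776 on the arrays labelled liver, against 138 and 148 on those labelled brain. These arrays are therefore named by their label throughout. Of 30 markers of the other 6 tissues, all by one-cycle and 29 by BIIB were highest in the labelled tissue, the exception being Amh, which was not raised in ovary by BIIB. Cd3g was high in sorted T cells and Cd79b in sorted B cells. Cd2, listed as a T cell marker, was high in both, with means of 22112 in 100 T cells and 11952 in 100 B cells. Of 6 macrophage markers, Csf1r, Cd68 and Lyz2 were higher on every RAW267 array than on any lymphocyte array, and Adgre1, Fcgr1 and Itgam overlapped the lymphocytes. The array of 500 T cells stood apart in carrying heart muscle transcripts, with a summed signal of 92789 over 6 markers, against at most 4833 on the other 17 lymphocyte arrays. Signals are MAS5 intensities, a linear scale on which each array has the same trimmed mean. A change is a difference of log2 signal, with a small constant added to each signal first. It was fitted with limma on all probe sets whose mean signal was at least 500. A call needs at least a 2-fold change and, after Benjamini-Hochberg adjustment, a p under 0.05.

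The sequence around the start sites shows what many of these genes share. RefSeq promoter entries (GRCm38.p6) were found for 41 of the 48 genes, 36 of them core genes. On the gene's strand, a run of at least 8 C or T bases overlapping the 15 bases on either side of the annotated start was found in 19 of 36 core genes (52.8%) and in 19.9% of 17491 protein-coding genes with an entry. The letters CGGAAG, searched on both strands of the 300 bases around the start, were in 26 of 36 core genes (72.2%) and in 23.5% of protein-coding genes. GGGCGG, on both strands, was in 55.6% against 49.2%, and TATAAA, on the gene's strand alone, in 11.1% against 9.82%. A match is a description of these letters and not a measured binding site. The windows below hold the 30 bases around the start of members that the results turn on, with capitals marking bases in such a pyrimidine run. The first 6 are core genes with a run, the next 2 are core genes with none, and the last 3 are relatives.
Rpl4, chr9:64173372-64173401, plus strand: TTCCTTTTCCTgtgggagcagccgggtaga
Rps9, chr7:3704026-3704055, plus strand: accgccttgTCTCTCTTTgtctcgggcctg
Rpl35, chr2:39005117-39005146, minus strand: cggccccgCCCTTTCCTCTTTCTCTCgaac
Rpl27a, chr7:109519180-109519209, plus strand: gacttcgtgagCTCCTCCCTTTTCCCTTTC
Rps6, chr4:86857353-86857382, minus strand: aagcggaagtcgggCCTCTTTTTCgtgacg
Rps18, chr17:33955651-33955680, minus strand: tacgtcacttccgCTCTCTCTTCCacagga
Rplp0, chr5:115559452-115559481, plus strand: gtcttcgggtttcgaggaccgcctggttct
Rps19, chr7:24884577-24884606, plus strand: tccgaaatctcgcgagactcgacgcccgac
Rpl3l, chr17:24727811-24727840, plus strand: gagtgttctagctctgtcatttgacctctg
Rpl22l1, chr3:28805493-28805522, plus strand: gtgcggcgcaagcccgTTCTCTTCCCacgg
Rps27l, chr9:66946071-66946100, plus strand: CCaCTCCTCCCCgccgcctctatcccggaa
The window of Rpl3l has no capitals, while those of Rpl22l1 and Rps27l do. Members with and without a run both appear among the genes that differed between tissues below.

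Across the 8 tissues, ribosomal protein mRNAs were highest in spleen and embryo and lowest in kidney. The brightest probe sets of the 41 core genes together made up 3.91% of the summed array signal in spleen by one-cycle and 5.58% by BIIB. Embryo followed with 3.91% and 4.89%, and ovary with 3.25% and 4.49%. Lung had 2.56% and 3.83%, heart 2.29% and 3.34%, and the arrays labelled brain 2.26% and 2.79%. The arrays labelled liver had 2.22% and 3.01%, and kidney had 1.78% and 2.76%. Spleen, embryo and ovary were the 3 highest and kidney the lowest by both protocols, and the share was higher by BIIB in every tissue. Each point is 1 array, so neighbouring tissues in this order have no replicate spread within a protocol. In tissue RNA, more cells of a type and more RNA per cell cannot be told apart.

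**Figure D1:**
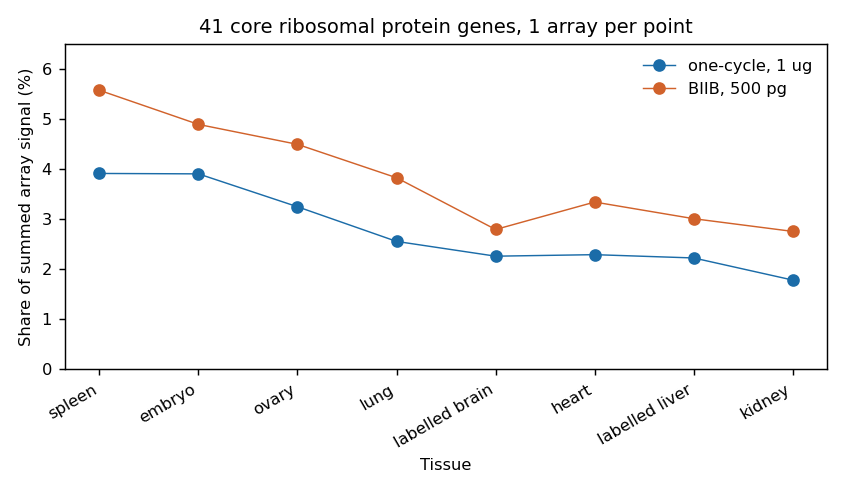
Share of summed array signal (y axis, percent) taken by the 41 core ribosomal protein genes in each tissue (x axis), 1 array per point, with one-cycle in blue and BIIB in orange. The lines only guide the eye; spleen, embryo and ovary lie highest and kidney lowest in both protocols.

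Many of the genes followed this order, over a narrow range. Of the 83 probe sets tested in tissues, 26 had their highest signal in spleen by both protocols and 15 in embryo. By both protocols 29 had their lowest in kidney and 8 on the arrays labelled liver. Several of these probe sets can belong to 1 gene. The same counts over all probe sets were not made, so they give no measure against the background. The mean of both protocols spanned a median of 1.45 log2 from lowest to highest tissue over the 40 core genes tested, against 2.35 over all 15180 probe sets tested. The range was under 1.5 log2 for 24 of the 40 core genes and for 21.9% of all probe sets. Most core genes are bright, and their ranges were not compared with those of other probe sets of like signal. The narrowest ranges were those of Rps14 (0.71), Rpl39 (0.85) and Rpl7a (1.02). The widest among core genes were those of Rps26 (2.18), Rps25 (2.18), Rplp0 (2.09), Rps27 (2.03) and Rpl22 (1.96). Over the 8 tissues the median correlation between protocols was 0.84 for core genes and 0.80 for all probe sets, with the RNA stocks shared. Rpl37 and Rps27 had correlations below 0, at -0.19 and -0.08.

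**Figure D2:**
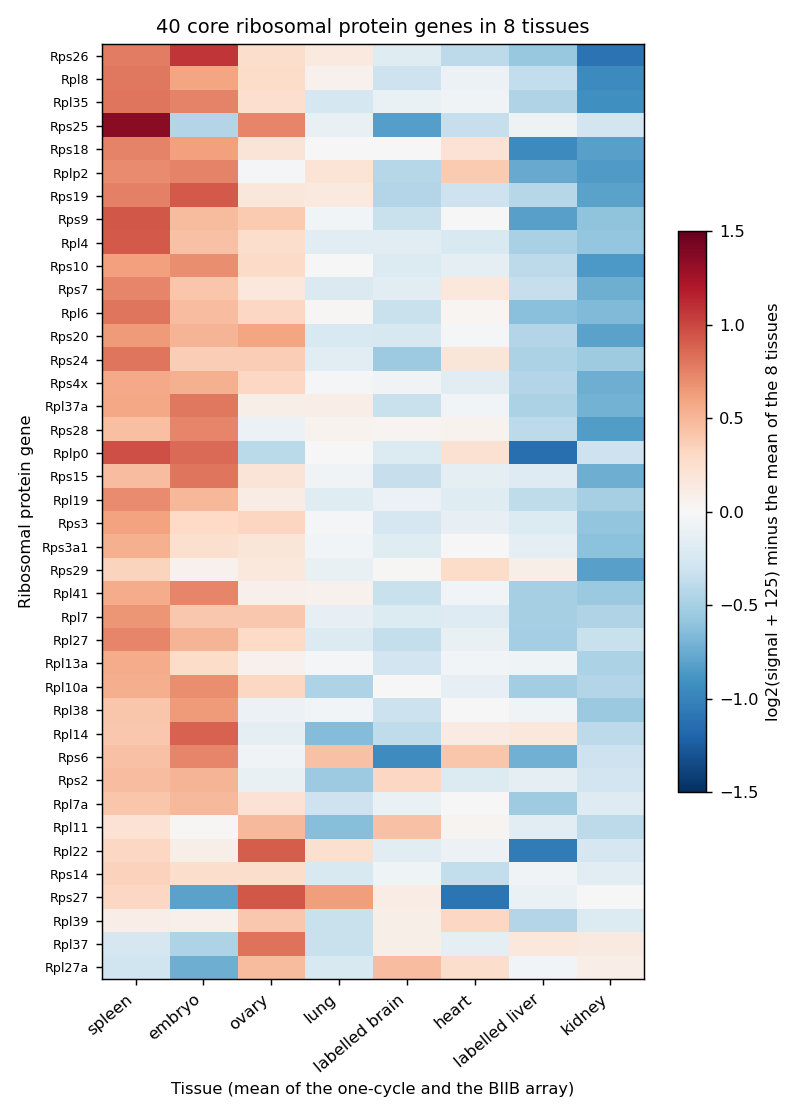
Level of each of 40 core genes (rows, sorted by spleen minus kidney) in 8 tissues (columns), as log2 signal in the mean of both protocols minus the gene's mean over tissues; red is above and blue below that mean. Most rows are red in spleen and embryo and blue in kidney, with Rps27, Rpl39, Rpl37 and Rpl27a at the foot of the plot departing from this order.

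In spleen 8 of 83 probe sets were called higher than in the other tissues (14.8% of all probe sets tested were) and 1 lower (19.5% of all were). Neither share was larger than the background. By adjusted p alone 46 of 83 were higher (19.2% of all) and 1 lower (23.2% of all), and the median change was 0.68, against -0.06 over all probe sets. Rplp0, the stalk base that anchors the other stalk proteins, had 130262 by one-cycle and 233585 by BIIB in spleen, against 53871 by one-cycle and 95667 by BIIB in kidney, and rose by 1.10 ± 0.20 (SE, limma adjusted p = 0.00122). Only the embryo came near these levels, with 129431 by one-cycle and 201460 by BIIB. Rps25, a small subunit protein, had 2612 by one-cycle and 1889 by BIIB in spleen, above every other tissue in both protocols, and rose by 1.55 ± 0.32 (SE, limma adjusted p = 0.00259). Rps9 rose by 1.07 ± 0.23 and Rpl4 by 1.05 ± 0.24. The probe set called lower was a second one of Rpl22, -1.15 ± 0.39 (SE, limma adjusted p = 0.0341), while its brighter one was not called. Without the arrays labelled brain and liver 4 were called higher and 2 lower, and Rplp0, at 0.89, Rps9, at 0.89, and Rpl4, at 0.97, fell short of the call, as Rplp0 did under quantile normalization, at 0.99. Without the one-cycle spleen array the calls were 13 higher and 1 lower.

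Other genes of protein synthesis were called in spleen as well. Both probe sets tested of ribosomal proteins with other names were called higher, Fau at 1.01 and Rpsa at 1.17. Of 30 probe sets of elongation factors and other TOP genes 9 were called higher and none lower (14.8% and 19.5% of all), with the poly(A)-binding protein gene Pabpc1 at 1.68 and the nucleolar chaperone gene Npm1 at 1.49. Of 45 probe sets of ribosome biogenesis genes 18 were called higher and none lower (again 14.8% and 19.5% of all), with the nucleolar proteins Nolc1 at 1.93 and Nop56 at 1.90. Marker genes of several blood cell types were high there too. The summed signal of 4 B cell markers was 87182 by one-cycle and 61111 by BIIB in spleen, against 1100 and 416 in kidney. That of 5 T cell markers was 25713 and 23313 against 679 and 1419. By BIIB most of the latter sum in spleen was Cd2, at 14069, which sorted B cells also carried. The part of these blood cell types in the result was not tested. In embryo 4 of the 45 biogenesis and 2 of the 30 TOP probe sets were called higher (10.3% of all), and on the arrays labelled brain 8 and 6 were called lower (24% of all), shares below the background.

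In embryo 10 of 83 probe sets were called higher (10.3% of all) and none lower (5.71% of all), and by adjusted p alone 29 were higher (11.9% of all) and none lower (7.21% of all). The median change was 0.58 against 0.04 over all probe sets. Rps26, which lies near the mRNA exit channel, had 123632 by one-cycle and 75386 by BIIB in embryo, the highest of the tissues in both protocols, and rose by 1.23 ± 0.25 (SE, limma adjusted p = 0.00537). Rps19, a gene mutated in the inherited anaemia of Diamond and Blackfan, had 78289.8 by one-cycle and 44651 by BIIB and rose by 1.05 ± 0.23 (SE, limma adjusted p = 0.00682). Rpl14 rose by 1.01 ± 0.22. Without the BIIB embryo array 3 were called, without the arrays labelled brain and liver 6, and Rps19, at 0.93, was then under 2-fold. Under quantile normalization Rps19, at 0.97, and Rpl14, at 0.93, were also under 2-fold.

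In kidney 12 of 83 were called lower (12.4% of all) and none higher (10.6% of all), and by adjusted p alone 41 were lower (15.4% of all) and 1 higher (12.9% of all). The median change was -0.70 against -0.13 over all probe sets. Rps26 had 33105 by one-cycle and 13488 by BIIB in kidney, the lowest of the tissues in both, and fell: -1.27 ± 0.25 (SE, limma adjusted p = 0.00294). Rpl8, a large subunit protein close to the peptidyl transferase centre, had 25953 by one-cycle and 47779 by BIIB, also the lowest in both, and fell: -1.09 ± 0.21 (SE, limma adjusted p = 0.0023). Rpl35 fell too, -1.06 ± 0.33. The other calls were second probe sets of Rpl7, Rpl13a, Rpl35, Rps9, Rps10, Rps24 and Rps28. Without the BIIB kidney array 6 were called lower, and without the arrays labelled brain and liver 30.

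The arrays labelled liver, which carry brain markers, had 9 of 83 probe sets called lower (19.4% of all) and none higher (15.3% of all). Rplp0 had 29001 by one-cycle and 57364 by BIIB there, the lowest of the tissues in both protocols, and fell: -1.29 ± 0.20 (SE, limma adjusted p = 0.000374). Rpl22 fell as well, -1.20 ± 0.31, and so did 2 of 3 Rps18 probe sets, -1.10 ± 0.31 and -1.11 ± 0.22. Relatives gave 4 of the 9 calls, described below. Of the 9, the falls of Rpl3l and of a dim Rps24 probe set are descriptions only. Their means were 41.3 and 21.9 there, and they passed the signal minimum through heart and ovary. On the arrays labelled brain, which carry liver markers, 3 were called higher (10.7% of all), all of Rps27l, and 3 lower (24% of all). Among the lower were Rps6, the substrate of the S6 kinases, at -1.08 ± 0.27, and the same Rps24 probe set. The latter, with a mean of 27.6 there, is again a description only. The calls for the label brain fell to 2 higher and 1 lower without its BIIB array and to 0 higher and 2 lower without its one-cycle array. Under quantile normalization the brighter Rps18 probe set on the arrays labelled liver, at -0.94, and Rps6 on those labelled brain, at -0.66, were not called. In ovary 2 were called higher (8.83% of all) and 1 lower (6.59% of all), with Rpl22 at 1.03 ± 0.31, and without the one-cycle ovary array none was, while without the BIIB one 1 was. In heart 1, Rpl3l, was called higher (10.4% of all) and 3 lower (12.2% of all), or 1 each way without the one-cycle heart array. In lung limma called none (12.4% of all were called higher and 9% lower), with 9 of 83 at an unadjusted p under 0.05 (37.1% of all).

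The 3 genes with the widest range over tissues were relatives of core genes, Rpl3l (7.30 log2), Rps27l (3.14) and Rps4l (3.04). Rpl3l had 21302 by one-cycle and 25957 by BIIB in heart and 1389 by one-cycle and 1478 by BIIB in embryo. In the other tissues its signal ran from 22.9 to 247 by one-cycle and from 19.5 to 479 by BIIB. Both heart arrays stood far above every other, and both embryo arrays above the remaining tissues. Its log2 change in heart was 6.36 ± 0.48 (SE), and 6.15 and 6.58 with either heart array left out. It passed the signal minimum only through heart (mean 308 on the other 14 arrays), so this is a description and not a test. In embryo it was 1.88 ± 0.48. It was not called there without the arrays labelled brain and liver, at 1.43, without either embryo array, or with a pseudocount of 32. Its called falls in ovary, -1.98 ± 0.48, and on the arrays labelled liver, -1.82 ± 0.48, are set against a mean that includes heart. The summed signal of 6 heart muscle markers was 1347670 and 2888560 in heart, 196990 and 211596 in embryo, and 101003 and 225394 in lung, where Rpl3l read 208 and 19.5. Their part in the embryo value was not tested.

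Rps27l, a p53-responsive paralog of Rps27, had 39130 by one-cycle and 15935 by BIIB on the arrays labelled brain and 4279 by one-cycle and 1726 by BIIB on those labelled liver. These were the highest and the lowest tissues in both protocols. The changes were 1.23 ± 0.26 (SE, limma adjusted p = 0.00276) and -2.36 ± 0.26 (SE, limma adjusted p = 2.53e-05), and all 3 of its probe sets were called in both comparisons. Without the arrays of the other label they were 0.91, no longer a call, and -2.23, and under quantile normalization 0.97, not a call, and -2.38. Its namesake Rps27 was highest in ovary and lowest in heart in the mean of both protocols, and no tissue called it. The Rps27 probe set is dim (mean 889 in tissues) and its protocols were correlated below 0. Its tissue order is therefore not settled, and whether it shares the pattern cannot be told.

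Rpl22l1, the paralog of Rpl22, had 27664 by one-cycle and 3692 by BIIB in spleen and 4266 by one-cycle and 1717 by BIIB in heart. Its fall in heart was -1.21 ± 0.39 (SE, limma adjusted p = 0.0362), and that of Rps4l, a relative of Rps4x, was -1.71 ± 0.57 (SE). Both calls were lost with a pseudocount of 32 and without the arrays labelled brain and liver. Rps4l had a mean of 239 in heart, under the signal minimum, so its fall is a description only. Without the one-cycle heart array Rpl22l1 read -0.43. Rpl7l1 spanned 1.16 log2 and was called in no tissue. Rpl39l and Rps15a-ps6, together with the core gene Rpl12, had no probe set above the signal minimum in tissues.

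**Figure D3:**
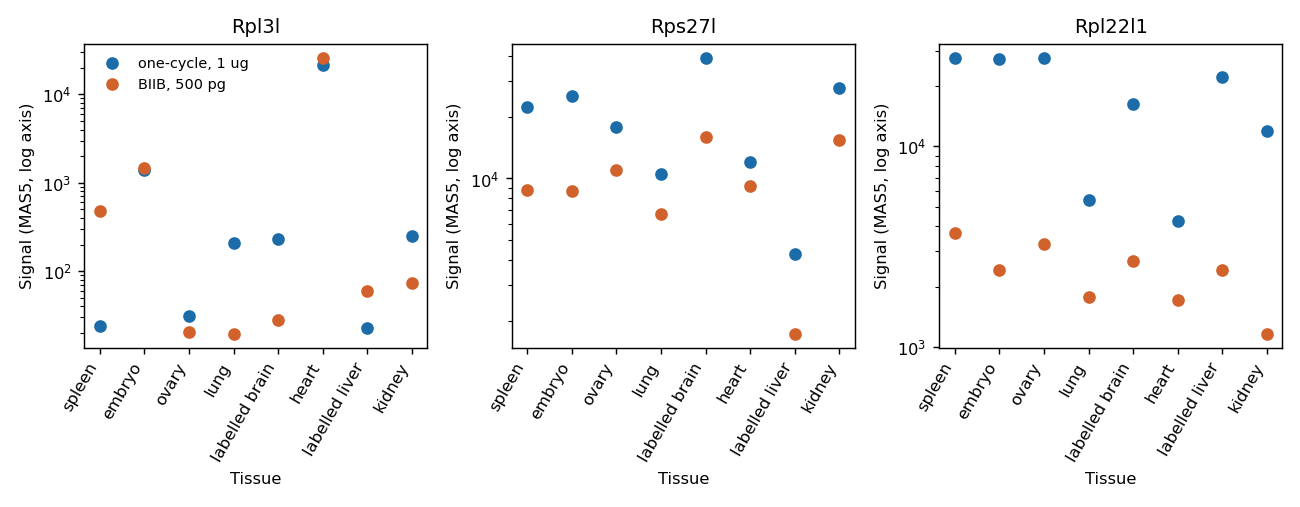
Signal (y axis, log scale) of Rpl3l, Rps27l and Rpl22l1 in 8 tissues (x axis), 1 array per point, with one-cycle in blue and BIIB in orange. Rpl3l is high in heart and next in embryo, Rps27l is lowest on the arrays labelled liver, and Rpl22l1 reads lower by BIIB than by one-cycle in every tissue.

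Second probe sets of some genes showed patterns that the brightest did not. They are named here after their values were seen. A dim Rps24 probe set had 1477 by one-cycle and 2382 by BIIB in ovary, against 23.5 by one-cycle and 31.7 by BIIB on the arrays labelled brain and 24.5 by one-cycle and 19.2 by BIIB on those labelled liver. Its change was 2.24 ± 0.53 (SE) in ovary, a description only, since it passed the signal minimum through the ovary arrays (mean 437 on the others). A second Rpl13a probe set had 13806 by one-cycle and 13901 by BIIB in spleen, 12506 by one-cycle and 15021 by BIIB in embryo and 1893 by one-cycle and 2507 by BIIB in heart. It was called higher in spleen, 1.71 ± 0.28, and embryo, 1.69 ± 0.28, and lower in heart, -1.26 ± 0.28, while the brightest Rpl13a probe set was called in none of them.

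In sorted lymphocytes, core genes took a larger share of the signal in T than in B cells. The share was 6.13% and 7.36% on the arrays of 100 T cells and 5.08% and 5.31% on those of 100 B cells, and the groups did not overlap. At 500 cells it was 5.96% in T and 4.83% in B cells, 1 array each, but that T cell array is the one with heart muscle transcripts, whose part in the values at 500 cells was not tested. The 4 mixtures of 100 cells ranged from 5.03% to 6.74%. The replicates of 60 T and 40 B cells alone read 5.36% and 6.74%, a gap nearly as wide as that between the means of unmixed T and B cells. No member was called by limma at 100 cells (0 of 93, with 0.164% of all called higher and 0.0764% lower), and 3 of 93 had an unadjusted p under 0.05 (6.55% of all). Both B cell arrays lay below both T cell arrays for 47 of 93 probe sets (18.3% of all) and above for 4 (16.1% of all). At 500 cells the B cell array was lower for 71 of 93 (48.7% of all), among them 45 of those 47 (95.7%). Over all probe sets 1906 of the 3363 that were lower at 100 cells were lower at 500 (56.7%). The median log2 difference of B minus T was -0.57 at 100 cells and -0.36 at 500 cells, against -0.05 and 0.04 over all probe sets. A share can also move with what the other genes of a cell give, and this was not tested.

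Rplp2 had 60924 and 98584 in 100 T cells and 42662 and 53063 in 100 B cells, and 96597 against 38829 at 500 cells. Every T cell array was above every B cell array. The same held for Rpl7a, with 189548 and 164244 against 115921 and 96061 at 100 cells and 125237 against 113083 at 500 cells. The largest difference at 100 cells was that of the second Rpl13a probe set, chosen after its values were seen. It read 37596 and 52618 in 100 T cells, 1528 and 2943 in 100 B cells, and 17919 against 1487 at 500 cells. Its change at 100 cells was -4.31 ± 1.27 (SE, limma adjusted p = 0.377), not a call. The brightest Rpl13a probe set was far less apart, at 349540 and 204969 against 175420 and 128954.

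RAW267 cells took a smaller share than the lymphocytes, except on 1 array of 50 cells. The share was 3.51% to 4.24% on 8 arrays of 500 to 10000 cells, 3.88% at 100 cells and 5.07% and 4.61% at 50 cells, against 4.83% to 7.36% on 18 lymphocyte arrays. Against lymphocytes at 100 and 500 cells, 10 of 93 probe sets were called lower (7.07% of all) and none higher (4.04% of all). The median change was -0.43, against -0.45 over all probe sets, and under quantile normalization they were -0.30 and -0.01, with 1 called higher and 7 lower. Rpl22l1 ranged from 3056 to 10606 in lymphocytes (median 7629) and had 1939 and 1391 at 500 RAW267 cells and 1918 at 100. The groups did not overlap, and it fell: -1.95 ± 0.46 (SE, limma adjusted p = 0.00658). Rps24 ranged from 54370.1 to 131615 (median 87445) and had 23205 and 32430 at 500 cells and 32452 at 100 cells of RAW267. It fell on all 3 of its probe sets called, at -1.64 ± 0.44, -1.73 ± 0.43 and -1.87 ± 0.43. Rpl13a, -1.44 ± 0.44, Rpl39, -1.41 ± 0.45, and Rps7, -1.36 ± 0.43, were also called, but not under quantile normalization, at -1.32, -1.18 and -1.08. With 3 RAW267 arrays these calls were not stable: none remained without the 100-cell array, 1 without either 500-cell array, 6 without the array of 500 T cells or that of 400 T and 100 B cells, and 4 at 500 cells alone. The 100-cell RAW267 array had a summed heart marker signal of 15242 and replicate 2 of 500 cells had 11605, and their part was not tested.

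Over RAW267 cell number limma called no member (0 of 85, with 2.26% of all called higher with more cells and 0.679% lower), while 32 of 85 had an unadjusted p under 0.05 (25.9% of all). Without the 100-cell array 11 were called, 3 higher and 8 lower with more cells. No share over all probe sets is given for that fit, so nothing particular to the members is read from it. The median change from 50 to 10000 cells was -0.40, against 0.29 over all probe sets. Replicate 2 of 50 cells had a summed heart marker signal of 50290, and its part was not tested.

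**Figure D4:**
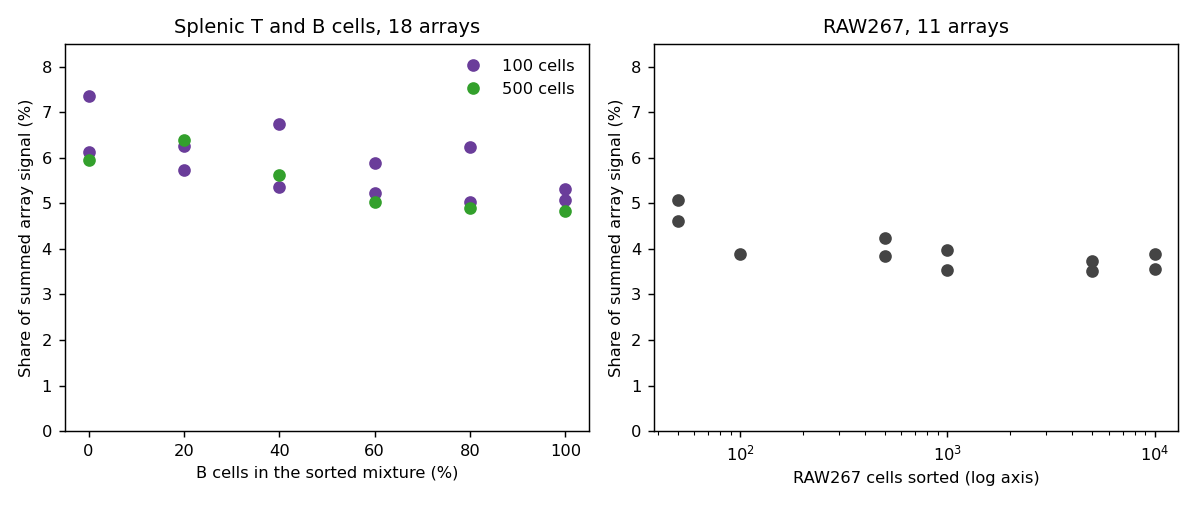
Left, share of summed signal (y axis, percent) of the 41 core genes against the percentage of B cells in the sorted mixture (x axis) at 100 cells (purple) and 500 cells (green). Right, the same share in RAW267 cells against the number sorted (log axis). Unmixed T cells lie above unmixed B cells at both sizes, and the RAW267 arrays of 50 cells lie above the rest.

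Between BIIB, Ovation or RiboAmp HS and one-cycle more members were called than between any tissue and the others, while two-cycle gave 10. The fits differ in their arrays and spread, so these counts do not compare the size of protocol and tissue differences. In the 8 tissues, 16 of 83 probe sets were called higher by BIIB than by one-cycle (12.3% of all) and 21 lower (24.4% of all). In universal RNA, BIIB at 5 ng against one-cycle gave 12 of 86 higher (13.7% of all) and 27 lower (27.1% of all), or 7 higher and 31 lower under quantile normalization. At 500 ng, two-cycle gave 1 of 85 higher (1.23% of all) and 9 lower (10.4% of all), Ovation 7 of 85 higher (15.1% of all) and 20 lower (31.9% of all), and RiboAmp HS 4 of 86 higher (14.1% of all) and 32 lower (33.9% of all). Most of these shares are near or below the background, and nothing particular to the members is read from them. These fits share the one-cycle arrays. Input and hybridised molecule (cDNA for Ovation and BIIB, cRNA for the others, per the labels) differ with the protocol and cannot be told apart from it.

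Rpl27a, a large subunit protein with 1 probe set above the signal minimum, differed most. It had 832, 875, 694 and 763 by one-cycle and 568 and 671 by two-cycle. By RiboAmp HS it had 2769 and 3371. By Ovation it had 94672 and 105739 and by BIIB at 5 ng 76814, 75766, 160351 and 133813. Every Ovation and BIIB array stood far above every one-cycle array, and the change was 6.78 ± 0.12 (SE, limma adjusted p = 6.95e-08) by Ovation and 6.86 ± 0.24 (SE, limma adjusted p = 5.77e-09) by BIIB. RiboAmp HS gave 1.80 ± 0.13. In tissues the change by BIIB was 6.88 ± 0.25 (SE, limma adjusted p = 6.76e-09), and its signals ran from 121 to 1157 by one-cycle and from 64007 to 108740 by BIIB.

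Probe sets of some genes moved in opposite directions. Of 19 genes with over 1 probe set tested, Rpl27, Rpl35, Rps9, Rps10 and Rps18 were called both ways in tissues. Rpl27, Rpl35 and Rps9 were with BIIB at 5 ng, Rpl27, Rpl41 and Rps9 with Ovation, and Rps9 with RiboAmp HS, while two-cycle had none. Genes outside the members were not counted in this way, so nothing particular to the members is read from these numbers. The brightest Rpl27 probe set had 21326, 22339.5, 23012 and 22631 by one-cycle and 129650, 128613, 213993 and 178909 by BIIB at 5 ng, a change of 2.83 ± 0.17 (SE, limma adjusted p = 1.81e-07). Another had 97010.2, 92985, 93481 and 96447 and 29627, 22962, 28008 and 27082, a change of -1.82 ± 0.12 (SE, limma adjusted p = 3.1e-07). In both cases the groups did not overlap. The brightest Rps9 probe set fell by BIIB, -1.38 ± 0.12, and RiboAmp HS, -3.50 ± 0.13, while a dim one rose by 1.15 ± 0.23 and 1.10 ± 0.19. The largest falls of a brightest probe set were Rpl37 by BIIB, -4.63 ± 0.23, which passed the signal minimum only through one-cycle, and Rps19 by RiboAmp HS, -3.74 ± 0.17. Rpl14 rose with two-cycle, 1.04 ± 0.09, Ovation, 1.5 ± 0.10, and RiboAmp HS, 1.98 ± 0.11. The stalk genes Rplp0, -1.92 ± 0.10, and Rplp2, -1.47 ± 0.10, fell with RiboAmp HS.

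**Figure D5:**
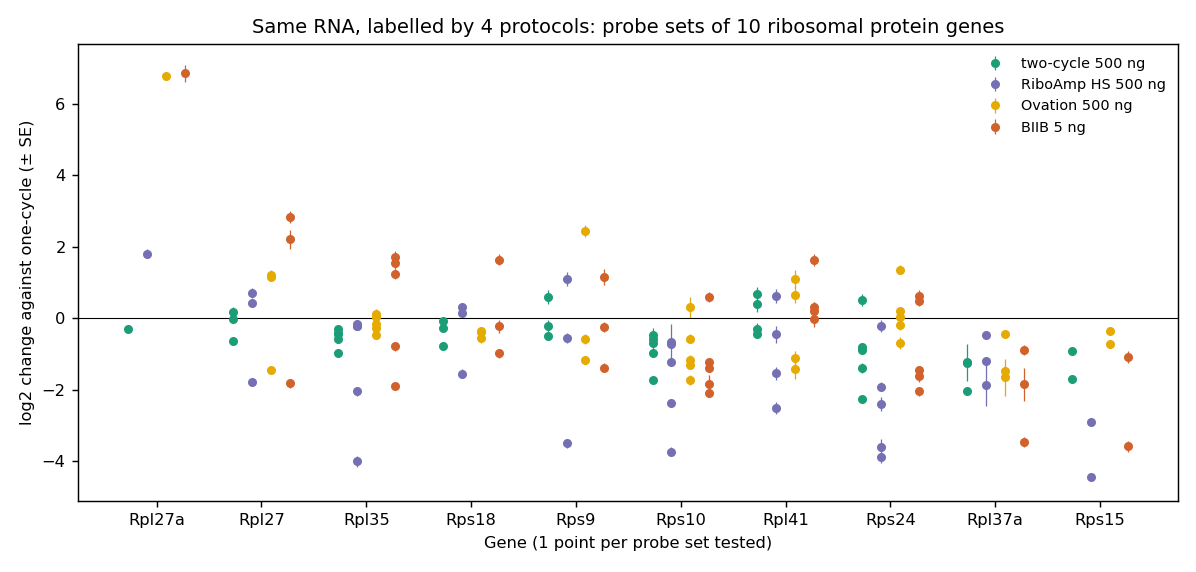
Change against one-cycle (y axis, log2, ± SE) of each probe set tested of 10 genes (x axis) in universal RNA, coloured by protocol. Rpl27a lies near 7 with Ovation and BIIB and near 0 with two-cycle, and points of 1 gene and protocol fall on both sides of 0 for Rpl27, Rpl35 and Rps9 with BIIB.

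At lower input the share of core genes rose with BIIB and fell with Ovation. With BIIB it was 5.12 ± 0.571% (SD, n = 4) at 5 ng, 5.87 ± 0.701% at 50 pg and 7.62 ± 0.368% at 10 pg, where all 4 arrays were above the 20 arrays of 5 ng to 50 pg. With Ovation it went from 3.2 ± 0.286% (SD, n = 2) at 500 ng to 1.92 ± 0.272% at 50 pg. With two-cycle the 50 pg arrays gave 6.77% and 1.26%, the widest gap of any group, and the second is the lowest of all 103 arrays. With RiboAmp HS it was 2.99 ± 0.286% at 500 ng, 5.7 ± 1.15% at 5 ng and 4.36 ± 1.85% at 50 pg (SD, n = 2 each). BIIB at 50 pg against 5 ng gave no call by limma (0 of 85, with 0.0172% of all called higher and 1.01% lower), and 13 of 85 had an unadjusted p under 0.05 (14.9% of all). BIIB at 10 pg gave 6 of 82 higher (0.729% of all) and 2 lower (11.4% of all). Rpl7a had 114464, 119746, 155198 and 137924 at 5 ng and 475309, 368017, 325192 and 326608 at 10 pg, which do not overlap, and rose by 1.5 ± 0.39 (SE, limma adjusted p = 0.0373). Rps28 rose by 1.51 ± 0.42 and Rps29 by 1.45 ± 0.40, and 1 gene, Rpl41, had probe sets called both ways. Both lower calls, of dim Rpl41 and Rpl7l1 probe sets, passed the signal minimum only through 5 ng. Their means at 10 pg were 103 and 293, so these falls are descriptions and not tests. Members had a median change of 0.90 against -0.78 over all probe sets, and under quantile normalization 0.22 against -0.25 with no member called. Calls without 1 array were 0 without 5 ng replicate 1, 3 or 4 and 1 without 5 ng replicate 2. They were 14 without 10 pg replicate 1 or 3 and 20 without 10 pg replicate 2, which had a summed heart marker signal of 57106. No shares over all probe sets are given beside these counts, so nothing particular to the members is read from them.

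The kits at 50 pg were compared with 500 ng in fits of 10 arrays. Two-cycle gave no call by limma (0 of 87, with 0.0435% of all higher and 0.149% lower), with 8 of 87 at an unadjusted p under 0.05 (24.8% of all). Leaving out either of its 50 pg arrays leaves 1 array in that group. Calls were then mostly lower without replicate 1 and mostly higher without replicate 2, and nothing particular to the members is read from this. Ovation gave 7 of 88 higher (10.8% of all) and 21 lower (16.1% of all), or 5 higher and 29 lower under quantile normalization. Rps3, which lines the mRNA entry of the small subunit, changed by -5.14 ± 1.26 (SE, limma adjusted p = 0.0198) and Rplp0 by -3.90 ± 0.90 (SE, limma adjusted p = 0.0158), from 52039 and 62654 to 1352 and 9789. Rpl39, 3.46 ± 0.61, Rps27, 2.88 ± 0.73, and dim probe sets of Rps18, 3.04 ± 0.68, and Rps20, 3.28 ± 0.89, were called higher. They had means under the signal minimum at 500 ng, so these are descriptions and not tests. So is the fall of a second Rpl7l1 probe set, -3.21 ± 0.56, with a mean of 327 at 50 pg. Rplp2 rose by 1.61 ± 0.51 but read -0.22 under quantile normalization. RiboAmp HS gave 5 of 88 higher (10.3% of all) and none lower (3.91% of all), with Rpl27a at 3.16 ± 0.91. Among these, a dim Rps18 probe set, 3.91 ± 0.92, is a description only, with a mean of 104 at 500 ng. The calls of both kits depended on single arrays. They were lost without either 500 ng array, and their number rose without Ovation 50 pg replicate 2 or either RiboAmp HS 50 pg array. Each such fit has 1 array in a group, and nothing particular to the members is read from it.

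Replicates of core genes stayed close with BIIB as the input fell. The median SD between 4 arrays was 0.27 log2 at 5 ng, 0.34 at 50 pg and 0.29 at 10 pg, against 0.27, 0.90 and 1.49 over all probe sets. By one-cycle it was 0.07 against 0.13. With the kits at 50 pg it was 2.31 against 1.43 (two-cycle), 1.07 against 1.41 (Ovation) and 1.26 against 1.28 (RiboAmp HS), 2 arrays each. At 10 pg the widest core gene with BIIB had an SD of 2.78. Core genes are bright, and no comparison with other probe sets of like signal was made.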

How the data were processed

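The authors deposited linear signal intensities, which the submitters' processing notes credit to MAS5, for every probe set of each array. Its version and scaling target are not given in the sources used here. Scanner files and detection calls were not used. The trimmed mean (2% at each end) lay between 2500.23 and 2502.45 on all arrays, and each was set to 2501.2. Log2(signal + 125) was fitted with limma 3.58.1 in R 4.3.3 (lmFit, eBayes, two-sided), with the 64 control probe sets and those with a mean under 500 in a fit left out. Of the 99 members 82 to 93 passed in each fit. A pseudocount understates changes of dim probe sets.

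Tissue fits had 16 arrays with the protocol as a covariate. B against T cells used the 12 arrays of 100 cells, RAW267 against lymphocytes 21 arrays with cell number, and RAW267 cell number a log10 slope. The other fits used the groups compared, or the 10 arrays of a kit.

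The member with the highest mean signal over all arrays represents a gene. Named are at most 5 called members each way per comparison, relatives, stalk genes and extreme tissue ranges. Members and lists were chosen with earlier results of these data known. Same-numbered arrays had correlations of deviations between -0.0889 and 0.114 over the probe sets above the signal minimum. The share of core genes still differed by replicate number. It was higher on replicate 2 than on replicate 1 in every lymphocyte group of 100 cells. With BIIB it was higher on replicates 3 and 4 than on 1 and 2 at each input from 5 ng to 50 pg. The main fits do not model this difference, and its cause was not tested. Fits were tested on simulated data, in which 100 bright probe sets were given a change of each size and the rest none. Changes of 1.5 log2 were recovered in 79% of cases for spleen, 99% for BIIB at 5 ng and 1% for RAW267 against lymphocytes. Changes of 4 log2 were recovered in 99%, 100% and 80%. The real fits called far more probe sets, 14.8% higher and 19.5% lower for spleen and 4.04% and 7.07% for RAW267 against lymphocytes. The adjustment of p differs with that number, so these rates do not carry over to the real fits. With few RAW267 arrays, an absent call for RAW267 against lymphocytes is still little evidence of no change. Alternatives were quantile normalization, a pseudocount of 32, no filter, adjusted p alone, blocks and leaving out arrays.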

Additional observations from a re-analysis of the deposited data

Results flagged for a closer look

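In 70 sets of 4 replicate values (a gene, or the share of core genes, in 1 group of 4 arrays), a single value stood far from the other 3 in 4 cases, about the number chance gives at 1 in 20. Rps18 read 508354 on replicate 3 of BIIB at 5 ng, above the others. Rpl37 read 76.1 on replicate 1 and Rpl27 read 305242 on replicate 2 of BIIB at 10 pg, and Rps9 read 63556 on replicate 1 of one-cycle, below the others. The causes were not tested.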

How the results depend on the processing

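By adjusted p alone the calls were 12 on the arrays labelled brain, 29 in embryo, 42 in kidney, 19 on the arrays labelled liver, 2 in lung, 47 in spleen, 64 for BIIB in tissues, and 67 (BIIB 5 ng), 55 (two-cycle), 63 (Ovation) and 62 (RiboAmp HS) in universal RNA. Without the arrays labelled brain and liver they were 6 in embryo, 30 in kidney, 1 in lung, 1 in ovary and 6 in spleen. A pseudocount of 32 gave 2 in heart, 1 in ovary and 2 for BIIB at 10 pg. BIIB at 10 pg gave 0 under quantile normalization, 14 with no filter and 2 with replicates 1 and 2 against 3 and 4 as a block. RiboAmp HS at 50 pg gave 3 under quantile normalization and 8 with no filter. RAW267 against lymphocytes gave 4 at 500 cells alone. With the replicate number as a block, BIIB at 10 pg gave 0 and RAW267 cell number gave 7, the latter without the 100-cell array. No other count moved by over 1.5 times. Most counts for these other settings, here and in the results above, have no share over all probe sets beside them. Nothing particular to the members is read from them, and fits without 1 array often leave 1 array in a group. Rplp2 with Ovation at 50 pg turned to -0.22 under quantile normalization, and no other named member changed sign. Leaving out 1 array gave 2 to 3 calls for the arrays labelled brain, 3 to 7 for embryo, 2 to 4 for heart, 6 to 9 for kidney, 7 for those labelled liver, 0 for lung, 0 to 1 for ovary, 8 to 14 for spleen, 0 for B against T cells, 0 to 10 for RAW267 against lymphocytes and 0 to 11 for RAW267 cell number. It gave 34 to 38 for BIIB in tissues (1 tissue left out), 38 to 42 for BIIB at 5 ng, 8 to 12 for two-cycle, 18 to 26 for Ovation and 33 to 37 for RiboAmp HS, and at low input 0 for BIIB at 50 pg, 0 to 20 at 10 pg, 0 to 76 for two-cycle, 0 to 51 for Ovation and 0 to 30 for RiboAmp HS. Quantile normalization moved the median of all probe sets, most for BIIB at 10 pg (-0.78 to -0.25) and RAW267 against lymphocytes (-0.45 to -0.01), and turned the sign of the members' median minus that of all on the arrays labelled brain, in heart and lung, for RAW267 against lymphocytes, and for BIIB and Ovation against one-cycle and two-cycle at 50 pg. The causes were not tested. Changes of dim probe sets, near the added constant, are understated, which limits the dim relatives most.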
